A study of Mus musculus with 2 samples.

Results

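Ezrin, radixin and moesin (the ERM proteins, encoded by Ezr, Rdx and Msn) and 5 regulators of the cell cortex (Stk10, Rock1, Rock2, Actr2 and Arpc2) were followed through mouse bone marrow by droplet-based 3′ single-cell RNA sequencing (scRNA-seq). These genes were taken by name, and each of the 8 had 1 row among the 32285 genes of both count tables. The data comprised 1 library labelled control (Ctrl) and 1 labelled Map4k4-cko (cKO), both from mice of 13 to 14 weeks, each made from 2 parts of c-Kit+ cells and 3 parts of whole bone marrow after lysis of red cells. According to the methods, both groups were littermates on a C57BL/6 background that carried Mx1-Cre, a Cre driven by an interferon-inducible promoter that acts in blood cells and in other tissues. The control is written there as Mx1-Cre Map4k4-/- and the cKO as Mx1-Cre Map4k4 f/f. Poly I:C injections were given to delete the floxed alleles of the cKO mice weeks before sampling, and whether control mice received them is not given in the sources used here, nor is the number of mice behind a library. With 1 library per genotype, differences between genotypes could not be set against replicates and carry no p-value.

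The Ctrl library held 71527701 unique molecular identifiers (UMIs, tags of single captured RNA molecules) in 10220 cell barcodes, and the cKO library 64393950 UMIs in 6872 barcodes. Of the cells kept with at least 1000 UMIs, 6981 of 8795 in Ctrl and 4325 of 5347 in cKO fell into 1 of 16 gates set by marker genes, and the rest were left ungated. Map4k4, the targeted gene, stood at 72.6 CPM (a gene's UMIs in a sum of cells, scaled to the same UMI total for every such sum) in the library labelled Ctrl and 64.3 CPM in the library labelled cKO. Whole libraries differ in their mix of cells. Within gates described below, Map4k4 stood at 119 CPM in Ctrl and 114 CPM in cKO for HSC/MPP, and 174 and 130 CPM for mNeu. In ProNeu it was higher in cKO, at 12.9 CPM in Ctrl and 19.5 CPM in cKO. The paper reports that RT-PCR showed loss of the Map4k4 transcript in stem and progenitor cells after poly I:C. RT-PCR and UMI counts from 3′ ends are unlike measures, and whether these counts would register the deletion was not tested. In these counts Map4k4 UMIs remained in the library labelled cKO, and every direction between Ctrl and cKO below rests on the labels. The libraries shared 3010 barcodes, which was 29.5% of those in Ctrl and 43.8% of those in cKO. Among the 1873 shared barcodes gated in both libraries, 13.3% lay in the same gate, and the median cosine similarity of the expression profiles was 0.525 for the same barcode and 0.528 for the next barcode on the list. Removing these cells moved 6 ratios of gene and gate between the libraries beyond their interval, and 50 did not move. Among ratios of mNeu over ProNeu 1 moved and 7 did not. Not all of the moved ratios are named below. The median depth of mNeu cells was 2635.5 UMIs in Ctrl against 6611 in cKO.

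ERM proteins bind the cytoplasmic tails of membrane proteins at one end and cortical actin filaments at the other. The link opens and closes with phosphorylation of a conserved threonine near their carboxyl end. Stk10 (LOK, a Ste20-family kinase of lymphocytes and other blood cells) and its relative Slk are known ERM kinases, Map4k4 is reported to act on the same site in other cells, and the kinases Rock1 and Rock2 drive myosin contraction and have also been placed upstream of ERM phosphorylation. Actr2 (Arp2) and Arpc2 are subunits of the Arp2/3 complex, which starts branched actin filaments at the leading edge of a moving cell. In leukocytes ERM proteins hold adhesion molecules such as PSGL-1 and CD44 on microvilli, and moesin is the ERM protein known to dominate in most of these cells.

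The gates followed neutrophil formation from stem and multipotent progenitors (HSC/MPP) through cells rich in primary granule RNA (ProNeu), cycling cells rich in secondary granule RNA (PreNeu) and non-cycling cells of that kind (imNeu) to mature neutrophils (mNeu). The 7 gates with at least 50 cells in both libraries were these 5, monocytes and erythroid progenitors. The other 9 gates reached 50 cells in Ctrl only and were described there. All markers of each gate were detected in that gate in both libraries. The gate's own markers took a larger share of UMIs inside than outside it. The same markers set the gates, so this share was fixed by the rule and does not test what the cells are. The cut between PreNeu and imNeu split a continuum, since 345 of 1915 Ctrl cells and 183 of 1413 cKO cells of the secondary granule class lay between 0.05% and 0.2% cycling-marker UMIs, around the cut of 0.1%. Because counts came from 3′ ends, levels were compared across gates for each gene and not between genes. Values in brackets are 95% intervals that cover counting error only.

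The position of Rock1 is not given here. In GENCODE vM21 on GRCm38, Ezr (ENSMUSG00000052397) lay on the minus strand of chromosome 17 from 6738041 to 6782784 and overlapped Sytl3 on the other strand. Msn (ENSMUSG00000031207) lay on the plus strand of chromosome X from 96096042 to 96168552, and Rdx (ENSMUSG00000032050) on the plus strand of chromosome 9 from 52047173 to 52088735. Stk10 (ENSMUSG00000020272, plus strand, 32533305 to 32624587) and Actr2 (ENSMUSG00000020152, minus strand, 20062304 to 20112913) shared chromosome 11. Rock2 (ENSMUSG00000020580) lay on the plus strand of chromosome 12 from 16894895 to 16987823, and Arpc2 (ENSMUSG00000006304) on the plus strand of chromosome 1 from 74236084 to 74268209. Ezr was the only one of these 7 genes to overlap another gene listed in the count tables.

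Stk10 and Msn, whose level differed most upward between ProNeu and mNeu, and Rdx, whose level differed most downward, are shown by the sequence before their start sites. The 250 bases before the first start site that RefSeq lists (GRCm38.p6, all on the plus strand) are shown 5′ to 3′, with capitals for matches on either strand of GAGGAA (the core that the myeloid factor PU.1 binds), GGGCGG (the GC box) or CCAAT, motifs of which none contains another. Stk10 lies at chr11:32533016-32533265, Msn at chrX:96095795-96096044 and Rdx at chr9:52046900-52047149.
Stk10: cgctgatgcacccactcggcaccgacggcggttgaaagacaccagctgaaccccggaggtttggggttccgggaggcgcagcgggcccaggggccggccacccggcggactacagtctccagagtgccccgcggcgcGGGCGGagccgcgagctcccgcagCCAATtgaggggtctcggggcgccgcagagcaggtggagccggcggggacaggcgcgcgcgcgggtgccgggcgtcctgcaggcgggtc
Msn: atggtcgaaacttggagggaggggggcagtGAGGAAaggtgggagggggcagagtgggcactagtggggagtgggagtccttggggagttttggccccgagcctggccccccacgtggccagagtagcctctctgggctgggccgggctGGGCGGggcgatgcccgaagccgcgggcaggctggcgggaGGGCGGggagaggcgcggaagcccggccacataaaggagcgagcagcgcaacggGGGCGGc
Rdx: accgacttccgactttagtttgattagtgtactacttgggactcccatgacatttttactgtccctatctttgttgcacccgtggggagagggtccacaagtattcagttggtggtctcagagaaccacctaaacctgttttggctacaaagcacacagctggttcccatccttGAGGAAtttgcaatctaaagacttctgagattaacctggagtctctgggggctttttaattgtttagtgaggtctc
The Stk10 window was 75.6% G or C with 33 CpG pairs, the Msn window 71.6% with 18 pairs and the Rdx window 45.2% with 3 pairs, against a median of 52.4% over 32851 listed start sites. A 2nd start site listed for Rdx had 56.0% G or C with 10 pairs. The window of Rock2, which was also lower in mNeu than in ProNeu, was the richest of the 7 genes at 83.6% with 46 pairs. Those of Ezr, Actr2 and Arpc2 lay between 67.2% and 70.0%. A relation between base composition and direction on the path was not tested. GAGGAA stood once before Msn, once before Rdx and not before Stk10, and 23.3% of all windows held it. GGGCGG stood 3 times before Msn, once before Stk10 and not before Rdx (32.7% of all windows), and CCAAT once before Stk10 (33.8%). A match is a description of letters and does not show that a factor binds there.

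Msn was the ERM gene with the highest ratio of mNeu over ProNeu. Its level in Ctrl was 186 CPM in HSC/MPP, 129 in ProNeu, 259 in PreNeu, 303 in imNeu and 513 in mNeu. In cKO the order was the same, with 158, 101, 213, 284 and 473 CPM. ProNeu was the lowest and mNeu the highest of the 5 gates in both libraries, and no neighbouring intervals overlapped along the Ctrl path. The log2 ratio of mNeu over ProNeu was 2.00 (1.90 to 2.09) in Ctrl and 2.22 (2.14 to 2.31) in cKO. After each cell was thinned to 1000 UMIs, Msn was detected in 11.7% of Ctrl ProNeu cells (9.57 to 14.2) and 41.3% of Ctrl mNeu cells (38.6 to 44.0), and in 12.6% and 38.6% of the cKO cells. Without thinning the shares were 77.6% and 72.5% in Ctrl, so that the order in Ctrl appeared only once depth was equal.

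Rdx ran the other way. Its level in Ctrl was 197 CPM in HSC/MPP, 142 in ProNeu, 105 in PreNeu, 58.8 in imNeu and 38.0 in mNeu. In cKO it was 168, 106, 76.3, 37.2 and 27.4 CPM. Each gate lay below the one before it, with intervals that did not overlap, in both libraries. For Rdx, mNeu over ProNeu gave a log2 ratio of -1.90 (-2.16 to -1.66) in Ctrl and -1.96 (-2.16 to -1.76) in cKO. This has to be read against the other genes, since the median log2 ratio of all genes with at least 20 UMIs was -1.14 in Ctrl and -1.28 in cKO. The Rdx ratio exceeded that of 36.8% of genes in Ctrl and 40.9% in cKO, so a ratio this low was common.

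Ezr varied least of the ERM genes on this path. Its level in Ctrl was 74.1 CPM in HSC/MPP, 72.3 in ProNeu, 106 in PreNeu, 97.2 in imNeu and 111 in mNeu. In cKO it was 70.9, 47.5, 95.04, 77.6 and 87.8 CPM. The step between ProNeu and PreNeu was the only neighbouring step upward with intervals apart in both libraries. For Ezr, mNeu over ProNeu gave a log2 ratio of 0.62 (0.46 to 0.79) in Ctrl and 0.89 (0.74 to 1.04) in cKO.

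**Figure D1:**
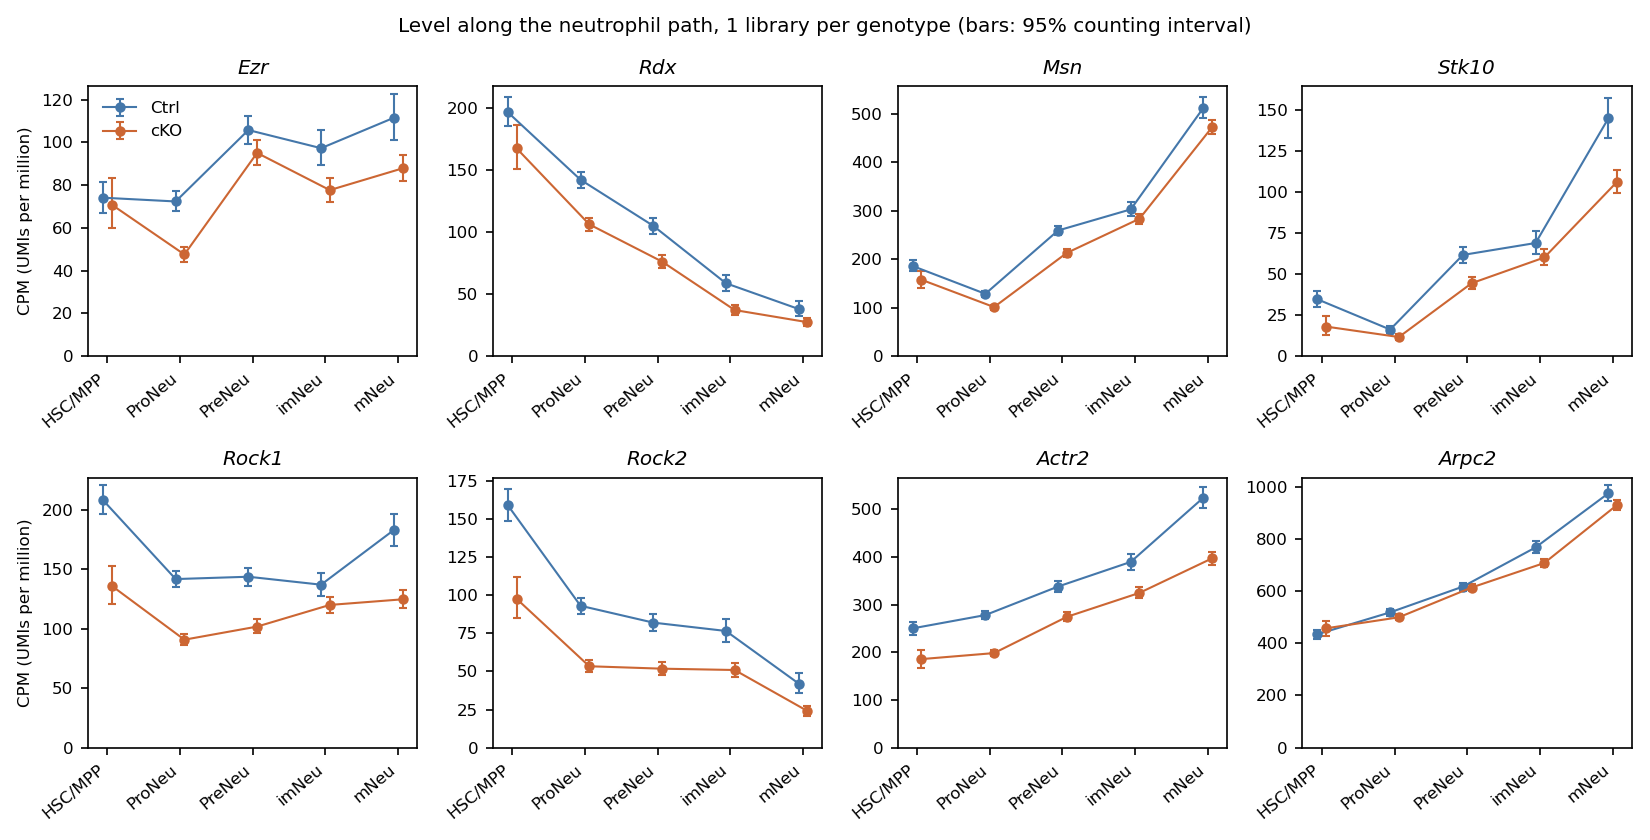
Level of each gene in CPM (vertical axis, from 0, own scale per gene) in the 5 gates of the neutrophil path (horizontal axis) for the Ctrl and cKO libraries, with 95% counting intervals as bars. Msn and Stk10 were lowest in ProNeu and highest in mNeu, Arpc2 and Actr2 were higher at each gate after ProNeu, and Rdx was lower at each gate.

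The makeup of ERM transcripts, meaning the share of Ezr, Rdx and Msn among the UMIs of these 3 genes, does not depend on how a library is scaled. In Ctrl, Msn held 40.7% of ERM UMIs in HSC/MPP (38.8 to 42.7), 37.5% in ProNeu (36.0 to 38.9), 55.2% in PreNeu, 66.0% in imNeu and 77.4% in mNeu (75.8 to 79.0). In cKO the Msn shares were 39.8%, 39.7%, 55.4%, 71.2% and 80.4%. For Msn and Rdx the intervals of HSC/MPP and ProNeu overlapped in both libraries, and those of ProNeu and PreNeu were apart in both. Ezr held 16.2% in HSC/MPP (14.8 to 17.7) and 21.1% in ProNeu (19.9 to 22.3) in Ctrl, with intervals apart, and 17.9% and 18.6% in cKO, with intervals that overlapped. Rdx held 43.1% of ERM UMIs in Ctrl HSC/MPP and 5.74% in Ctrl mNeu, and 42.3% and 4.65% in cKO. With the mean of per-cell proportions in place of summed UMIs, the Msn share in cKO ProNeu moved to 47.4%. With that setting 6 Msn shares moved beyond their interval and 8 did not. With Leiden clusters in place of gates 5 moved and 9 did not. Without barcodes found in both libraries 2 moved, and with a wider margin between gates 1 moved.

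Outside the neutrophil path, monocytes resembled the later neutrophil gates in their Msn share (68.9% in Ctrl and 72.9% in cKO), with Rdx at 22.6% and 19.4%. Erythroid progenitors had the opposite makeup, with Rdx at 55.4% in Ctrl (53.8 to 57.1) and 55.2% in cKO (52.3 to 58.0) and Msn at 19.7% and 19.5%. Megakaryocytes in Ctrl were alike, with Rdx at 59.7% (55.6 to 63.7) and Msn at 25.1%. In Ctrl erythroblasts, of which there were 109 cells with 140 ERM UMIs, Ezr held 39.3%. Among lymphoid gates of Ctrl, Msn held 43.8% in early B cells, 59.7% in B cells and 61.5% in T/NK cells.

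**Figure D2:**
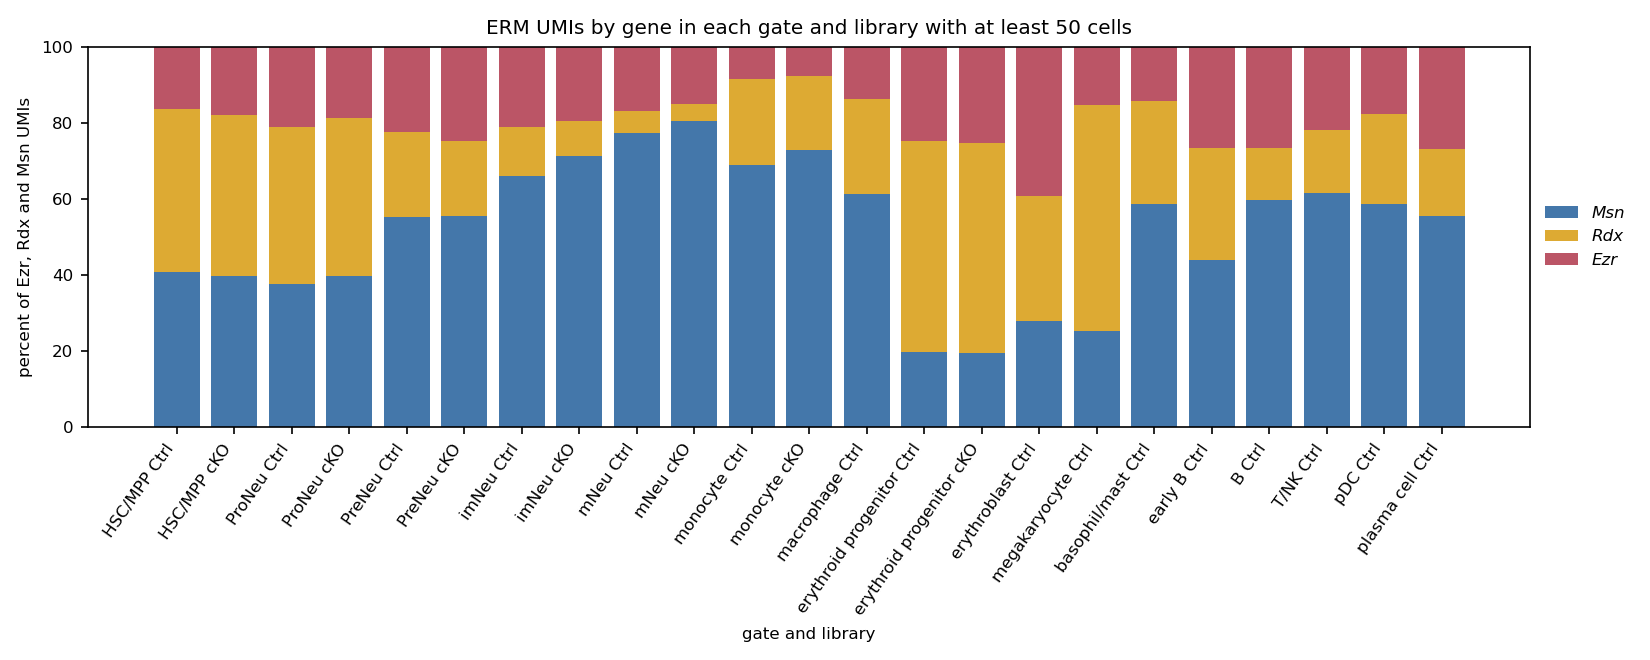
Share of Ezr, Rdx and Msn (percent of the UMIs of these 3 genes, stacked to 100) in each gate and library with at least 50 cells. Msn took 37.5% in Ctrl ProNeu and 77.4% in Ctrl mNeu. The Rdx share was higher in erythroid progenitors and megakaryocytes than in the other gates.

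Over all 16 Ctrl gates, Ezr was highest in B cells at 256 CPM (227 to 287), above early B cells at 162 CPM, and its intervals overlapped between neighbours in 14 of the 15 steps of its order. Rdx was highest in megakaryocytes at 311 CPM (279 to 345), then in erythroid progenitors at 265 CPM (253 to 277) and HSC/MPP at 197 CPM (185 to 209), 3 levels with separate intervals. Msn reached 572 CPM in B cells, 525 CPM in monocytes and 513 CPM in mNeu, which did not differ beyond their intervals from neighbour to neighbour, and stood at 94.3 CPM in erythroid progenitors and 84.6 CPM in erythroblasts. Several of the lowest values belonged to plasma cells and erythroblasts. Gate markers, chiefly haemoglobin genes, took 33.0% of the UMIs of erythroblasts, which lowers the CPM of all other genes there. In plasma cells the gate markers took 3.74% of UMIs. Immunoglobulin chain genes were not among those markers, and their effect on the CPM of other genes was not measured.

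Stk10, the ERM kinase among the 8 genes, had the widest range. In Ctrl it stood at 34.6 CPM in HSC/MPP, 16.2 in ProNeu, 61.6 in PreNeu, 68.8 in imNeu and 145 in mNeu. In cKO it stood at 17.9, 11.6, 44.4, 60.0 and 106 CPM. The ProNeu gate was a low point in both libraries, and the intervals of PreNeu and imNeu overlapped in Ctrl. The mNeu level was 8.95 times the ProNeu level in Ctrl, a log2 ratio of 3.16 (2.93 to 3.40), and 9.15 times in cKO, a log2 ratio of 3.19 (2.96 to 3.44). These ratios exceeded those of 95.7% and 95.1% of genes. Stk10 was detected in 1.13% of Ctrl ProNeu cells (0.520 to 2.14) and 14.2% of Ctrl mNeu cells (12.4 to 16.2) after thinning to 1000 UMIs, and in 2.15% and 10.4% of cKO cells.

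Stk10 was also high in Ctrl T/NK cells (145 CPM, 112 to 185), monocytes (119 CPM, 111 to 128) and B cells (102 CPM). Its lowest gate was erythroid progenitors, at 10.6 CPM in Ctrl (79 UMIs in 435 cells) and 6.37 CPM in cKO (18 UMIs in 122 cells). In that gate, markers of mature neutrophils summed to 487 CPM in Ctrl and 527 CPM in cKO, against 45298 and 48431 CPM in mNeu itself. Secondary granule markers summed to 3618 CPM in Ctrl and 3238 CPM in cKO there, against 136890 and 139799 CPM in PreNeu. Primary granule markers summed to 1024 and 384 CPM. Markers of other cell types were thus counted in this gate, and their source was not tested. No gate is known to lack any of the 8 genes, and the part of free RNA in the lowest values was not tested.

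**Figure D3:**
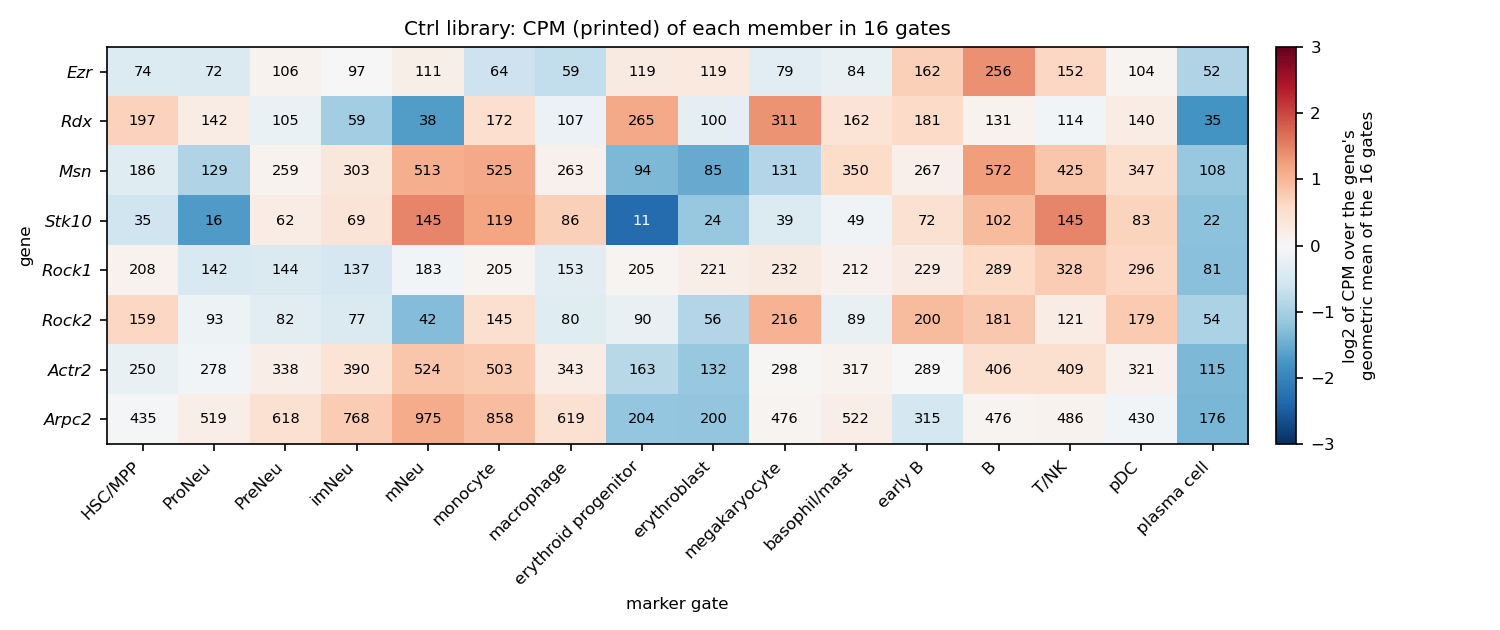
CPM of each gene (printed in the cells) in the 16 Ctrl gates, coloured by the log2 of CPM over the gene's geometric mean across gates, so that colours compare gates within a gene only. Stk10 ranged from 10.6 CPM in erythroid progenitors to 145 CPM in T/NK cells and mNeu, and Rdx from 34.9 CPM in plasma cells to 311 CPM in megakaryocytes.

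Rock1 and Rock2 parted at maturity. Rock1 in Ctrl was at 208 CPM in HSC/MPP, 142 in ProNeu, 144 in PreNeu, 137 in imNeu and 183 in mNeu, and in cKO at 136, 90.7, 102, 120 and 125 CPM. Rock2 in Ctrl was at 159 CPM in HSC/MPP, 93.2 in ProNeu, 82.1 in PreNeu, 76.6 in imNeu and 42.1 in mNeu, and in cKO at 97.8, 53.4, 51.8, 51.0 and 24.1 CPM. Rock1 had its low point between ProNeu and imNeu, whereas Rock2 was lowest in mNeu in both libraries. The log2 ratio of mNeu over ProNeu was 0.37 (0.24 to 0.49) in Ctrl and 0.46 (0.34 to 0.57) in cKO for Rock1, and -1.15 (-1.39 to -0.91) in Ctrl and -1.15 (-1.38 to -0.93) in cKO for Rock2. The sign of the Rock1 ratio turned, to -0.04 in Ctrl and -0.02 in cKO, when mitochondrial, ribosomal and marker genes were left out of the total. The Rock2 ratio was at the middle of all genes, above 49.9% of them in Ctrl and 52.0% in cKO.

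As a share of Rock1 and Rock2 UMIs together, which no scaling changes, Rock2 held 39.7% in Ctrl ProNeu (37.9 to 41.4) and 18.7% in Ctrl mNeu (16.2 to 21.4), and 37.1% (35.0 to 39.2) and 16.2% (14.2 to 18.3) in cKO. It held 48.2% in Ctrl megakaryocytes (43.7 to 52.7) and 46.6% in early B cells (42.6 to 50.6), the highest shares among gates with at least 50 cells. Rock1 was highest in Ctrl T/NK cells at 328 CPM (277 to 385), followed by plasmacytoid dendritic cells at 296 CPM and B cells at 289 CPM with overlapping intervals.

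Both Arp2/3 subunits were higher at each gate from ProNeu on. Arpc2 in Ctrl was at 435 CPM in HSC/MPP, 519 in ProNeu, 618 in PreNeu, 768 in imNeu and 975 in mNeu, and in cKO at 458, 500, 614, 708 and 931 CPM. Actr2 in Ctrl was at 250, 278, 338, 390 and 524 CPM, and in cKO at 186, 198, 274, 325 and 397 CPM. Every gate lay above the one before it in both libraries, and the intervals of neighbouring gates were apart from ProNeu on. Arpc2 had a log2 ratio of mNeu over ProNeu of 0.91 (0.85 to 0.97) in Ctrl and 0.90 (0.85 to 0.94) in cKO, and Actr2 one of 0.92 (0.84 to 0.99) and 1.002 (0.93 to 1.07). Both genes were lowest in plasma cells in Ctrl, with Arpc2 at 176 CPM and Actr2 at 115 CPM, and low in erythroid progenitors (204 and 163 CPM). For both genes the plasma cell interval overlapped that of erythroblasts.

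Counting a change past 1.5-fold in both libraries, 5 of the 8 genes (Stk10, Msn, Actr2, Arpc2 and Ezr) were higher in mNeu than in ProNeu, where 19.0% of all genes were. Rdx and Rock2 were lower, as were 57.6% of all genes. Rock1 passed neither way. Against median-of-ratios scaling, which sets the typical abundant gene to no change, the ratios of all 8 genes differed by 0.09 in Ctrl and 0.25 in cKO on the log2 scale and kept their signs. Leaving mitochondrial, ribosomal and marker genes out of the total lowered all ratios by 0.41 in Ctrl and 0.48 in cKO. Stk10 and Msn were then the 2 genes still higher past 1.5-fold, and the share of all genes on that scale was not measured.

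The wider pathway was read from 5 lists of related genes. Of the 5 ERM kinases and phosphatases with enough UMIs, 2 were higher in mNeu than in ProNeu past 1.5-fold in both libraries (19.0% of all genes). Lower was 1 gene (57.6% of all genes), Mink1, at -1.59 in Ctrl and -4.38 in cKO, with 15 and 3 UMIs in mNeu. The highest was Map4k4 itself, from 12.9 to 174 CPM in Ctrl (log2 ratio 3.76, 3.51 to 4.01) and from 19.5 to 130 CPM in cKO (2.75, 2.56 to 2.94). The lowest with at least 20 UMIs in each gate was Slk, at -0.82 in Ctrl and -0.37 in cKO, which is not past 1.5-fold in cKO. Map4k4 and Stk10 were thus both much higher in mNeu, while Mink1 and Slk, the relative of Stk10, were not.

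Of 9 measured membrane and scaffold partners of ERM proteins, 3 were higher (19.0% of all genes) and 5 lower (57.6% of all genes). Selplg, which encodes the selectin ligand PSGL-1, was highest with log2 ratios of 2.91 in Ctrl and 3.26 in cKO, and Cd34, a sialomucin of progenitors, lowest with -2.94 and -4.21. Of the other 7 Arp2/3 subunits measured, 3 were higher (19.0% of all genes) and 1 was lower (57.6% of all genes). Arpc5 was highest (1.99 and 2.13) and its paralogue Arpc5l lowest (-1.46 and -1.83). None of 14 measured Arp2/3 activators was lower past 1.5-fold in both libraries (57.6% of all genes) and 8 were higher (19.0% of all genes). Hcls1, the haematopoietic relative of cortactin, was highest (2.41 and 2.13), and Wasl, the widely expressed relative of Was, lowest at -0.86 and -0.49.

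Of 9 genes for actin and its monomer-binding and capping partners, 6 were higher (19.0% of all genes) and none was lower (57.6% of all genes). Actb was highest at 1.85 and 1.82 and Tmsb10 lowest at -0.11 and -0.33. The median of the list was 1.24 in Ctrl and 1.19 in cKO for actin and partners, 0.83 and 0.93 for Arp2/3 activators, 0.36 and 0.28 for other Arp2/3 subunits, -0.11 and -0.14 for ERM kinases and phosphatases, and -1.33 and -2.44 for ERM partners. The medians of ERM partners were the values of Icam1, which had 8 UMIs in mNeu in Ctrl and 8 in cKO. Its intervals were -2.60 to -0.27 in Ctrl and -3.70 to -1.39 in cKO. The median of all genes was -1.14 and -1.28.

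**Figure D4:**
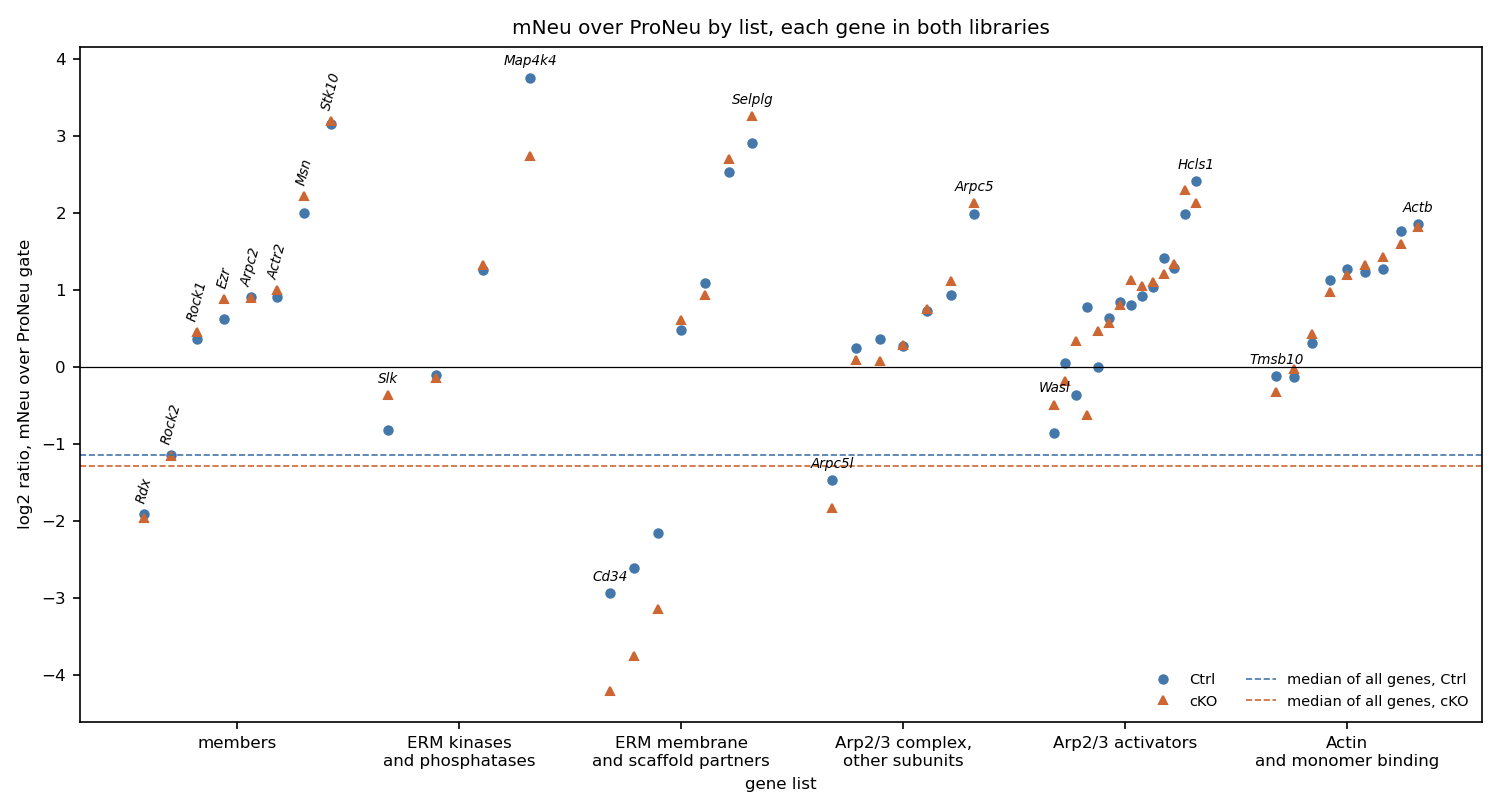
Log2 ratio of mNeu over ProNeu (vertical axis) for the 8 genes (labelled members) and each gene of 5 related lists with at least 20 UMIs in each gate, in Ctrl (circles) and cKO (triangles), with the medians of all genes as dashed lines. Names mark the 8 genes and the highest and lowest gene of each list. Most actin and Arp2/3 genes lie above 0. Map4k4 (3.76) and Stk10 (3.16) lie highest in Ctrl, and Selplg (3.26) and Stk10 (3.19) in cKO.

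Genes whose level followed each of the 8 most closely were sought among 4550 genes over the 23 combinations of gate and library with at least 50 cells. The combinations share 2 libraries and are not independent, so the correlations of log2(CPM + 10) describe the gates. Msn was followed by Ssh2, a cofilin phosphatase (Pearson r = 0.95), Iqgap1, an actin scaffold (0.95), and Fmnl1, a leukocyte formin (0.94). Stk10 was followed by Ptprc, the leukocyte antigen CD45 (0.94), and again by Ssh2 (0.93). Actr2 was followed by Cdc42, a small GTPase that activates Arp2/3 (0.95), Actr3, the partner of Actr2 in the complex (0.95), and Washc2, a subunit of the WASH complex (0.94). Arpc2 was followed by Actg1, cytoplasmic actin (0.97), Arpc1b, another Arp2/3 subunit (0.94), and Gnai2, a G protein subunit (0.94).

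The other 4 genes had their own closest genes, and whether closest genes share a role was not tested. For Rdx they were Cul1 (0.98), Anapc1 (0.97) and Thoc3 (0.97), for Rock1 Zc3hav1, Rnf20 and Cdk13 (0.92 each), and for Rock2 N4bp2, Wtap and Mapkap1 (0.90 each). Ezr had the weakest likeness to any gene, led by Tnrc6b (0.81), Fam53b (0.79) and Tmem131l (0.77). Among the 8 genes, Msn and Stk10 were most alike (0.93), then Msn and Actr2 (0.91), and Rdx and Stk10 least alike (-0.35).

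Between the libraries, Rock2 was lower in cKO in each of the 7 gates. Its Ctrl and cKO levels were 159 and 97.8 CPM in HSC/MPP, 93.2 and 53.4 in ProNeu, 82.1 and 51.8 in PreNeu and 76.6 and 51.0 in imNeu. They were 42.1 and 24.1 CPM in mNeu, 145 and 86.6 in monocytes and 89.6 and 52.7 in erythroid progenitors. The log2 ratio of cKO over Ctrl lay between -0.81 and -0.59, and the cKO and Ctrl intervals did not overlap in any gate. The ratio also lay below the gate's median of all genes by 0.21 to 0.59, with its interval below that median in 7 of 7 gates. Between 8.94% and 33.1% of genes in a gate had a still lower ratio. All gates come from the same Ctrl and cKO library, so agreement among them is not replication. How many of all genes lay on the same side of the median in every gate was not counted.

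These medians are needed because most genes had a lower CPM in cKO. The median log2 ratio of all genes was -0.11 in HSC/MPP, -0.28 in ProNeu, -0.32 in PreNeu, -0.38 in imNeu, -0.43 in mNeu, -0.22 in monocytes and -0.18 in erythroid progenitors. Of the 56 combinations of gene and gate, 53 had a ratio below 0, while 34 lay below the gate's median. The interval lay wholly below the gate's median in 20 combinations and wholly above it in 13. The share of all genes with an interval off the median was not measured, so these counts have no background.

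Past 1.5-fold lower in cKO were 3 of the 8 genes in HSC/MPP (14.0% of all genes), 3 in ProNeu (21.3%), 1 in PreNeu (23.7%), 2 in imNeu (33.4%), 1 in mNeu (37.2%), 1 in monocytes (21.3%) and 3 in erythroid progenitors (20.7%). None was higher past 1.5-fold in any gate, where 5.74% of genes in HSC/MPP, 2.43% in ProNeu, 1.91% in PreNeu, 2.54% in imNeu, 3.38% in mNeu, 4.42% in monocytes and 5.86% in erythroid progenitors were. In all, 14 of 56 combinations were lower. With median-of-ratios scaling 5 were lower, namely Rock2 in HSC/MPP, monocytes and erythroid progenitors and Stk10 in HSC/MPP and erythroid progenitors. On that scale 10.8% of all genes were lower in HSC/MPP, 14.0% in monocytes and 16.7% in erythroid progenitors, while none of the 8 genes was lower in ProNeu (7.41% of all genes), PreNeu (8.99%), imNeu (16.1%) or mNeu (18.7%).

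Arpc2 lay off the gate medians in the other direction, with a ratio above that of 65.9% to 84.6% of genes in a gate. Its log2 ratio was 0.07 (-0.04 to 0.18) in HSC/MPP, -0.05 (-0.10 to -0.01) in ProNeu, -0.01 (-0.06 to 0.04) in PreNeu, -0.12 (-0.17 to -0.06) in imNeu and -0.07 (-0.12 to -0.01) in mNeu. It was 0.25 (0.19 to 0.31) in monocytes, from 858 to 1021 CPM, and 0.04 (-0.10 to 0.18) in erythroid progenitors. The interval lay above the gate's median in all 7 gates, by 0.19 to 0.47 at the point estimate. Here too the gates share the same pair of libraries, and the share of all genes above the median in every gate was not counted. The CPM ratio of Arpc2 thus stayed within 0.12 of 0 in the 6 gates other than monocytes, and with median-of-ratios scaling it was higher in cKO in all 7, by 0.12 to 0.40. Arpc2 was not alone in this among Arp2/3 subunits, but the subunits differed. Arpc3 had a ratio of 0.28 to 0.55 and Arpc4 one of 0.08 to 0.36 over the 7 gates. Actr3 had a ratio of -0.40 to -0.03 over the 7 gates and Arpc5 one of -0.37 to 0.02. Both Actr3 and Arpc5 lay below the gate's median in HSC/MPP, ProNeu and erythroid progenitors. The median of the 7 other subunits measured was above that of all genes in each gate, at -0.23 in mNeu to 0.28 in monocytes, and so was the median of the 9 genes for actin and partners, at -0.06 in HSC/MPP to 0.42 in monocytes.

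Actr2, the other Arp2/3 subunit, was lower in cKO in each gate, with log2 ratios of -0.49 (-0.56 to -0.42) in ProNeu to -0.23 (-0.40 to -0.06) in erythroid progenitors, but lay below the gate median in only 4 of 7 gates. With median-of-ratios scaling its ratio in imNeu was 0.07, and with the mean of per-cell proportions its ratio in erythroid progenitors was 0.16. Rock1 was lower in all 7 gates, from -0.64 (-0.75 to -0.54) in ProNeu to -0.19 (-0.32 to -0.06) in imNeu. It lay below the gate median in 6 gates, and with median-of-ratios scaling the imNeu ratio was 0.14.

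Stk10 had the lowest single ratio, in HSC/MPP, with 195 UMIs (34.6 CPM) in Ctrl and 38 UMIs (17.9 CPM) in cKO, a log2 ratio of -0.95 (-1.49 to -0.44). In mNeu its ratio was -0.45 (-0.60 to -0.29), next to the gate's median of -0.43. In imNeu it was -0.20 (-0.38 to -0.01) and turned to 0.13 with median-of-ratios scaling. In erythroid progenitors the ratio of -0.74 (-1.57 to 0.01) rested on 18 UMIs in cKO, was -1.97 without barcodes found in both libraries and turned to 0.47 when clusters replaced gates.

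No ERM gene was lower past 1.5-fold in more than 1 gate, which was ProNeu for Ezr and imNeu for Rdx. Msn ranged from -0.35 (-0.45 to -0.24) in ProNeu to -0.08 (-0.15 to 0.00) in monocytes, and lay above the gate's median by 0.28 in imNeu and 0.32 in mNeu. With median-of-ratios scaling its ratio was 0.24 in imNeu, 0.25 in mNeu and 0.07 in monocytes. With the mean of per-cell proportions it was 0.06 in ProNeu and 0.30 in erythroid progenitors, so that the direction of Msn between the libraries depended on the scale. Rdx ranged from -0.66 (-0.88 to -0.44) in imNeu to -0.17 (-0.30 to -0.04) in erythroid progenitors. Ezr ranged from -0.61 (-0.75 to -0.46) in ProNeu, where the level was 72.3 CPM in Ctrl and 47.5 CPM in cKO, to -0.06 (-0.34 to 0.21) in HSC/MPP, and its ratio turned to 0.13 in PreNeu with median-of-ratios scaling.

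**Figure D5:**
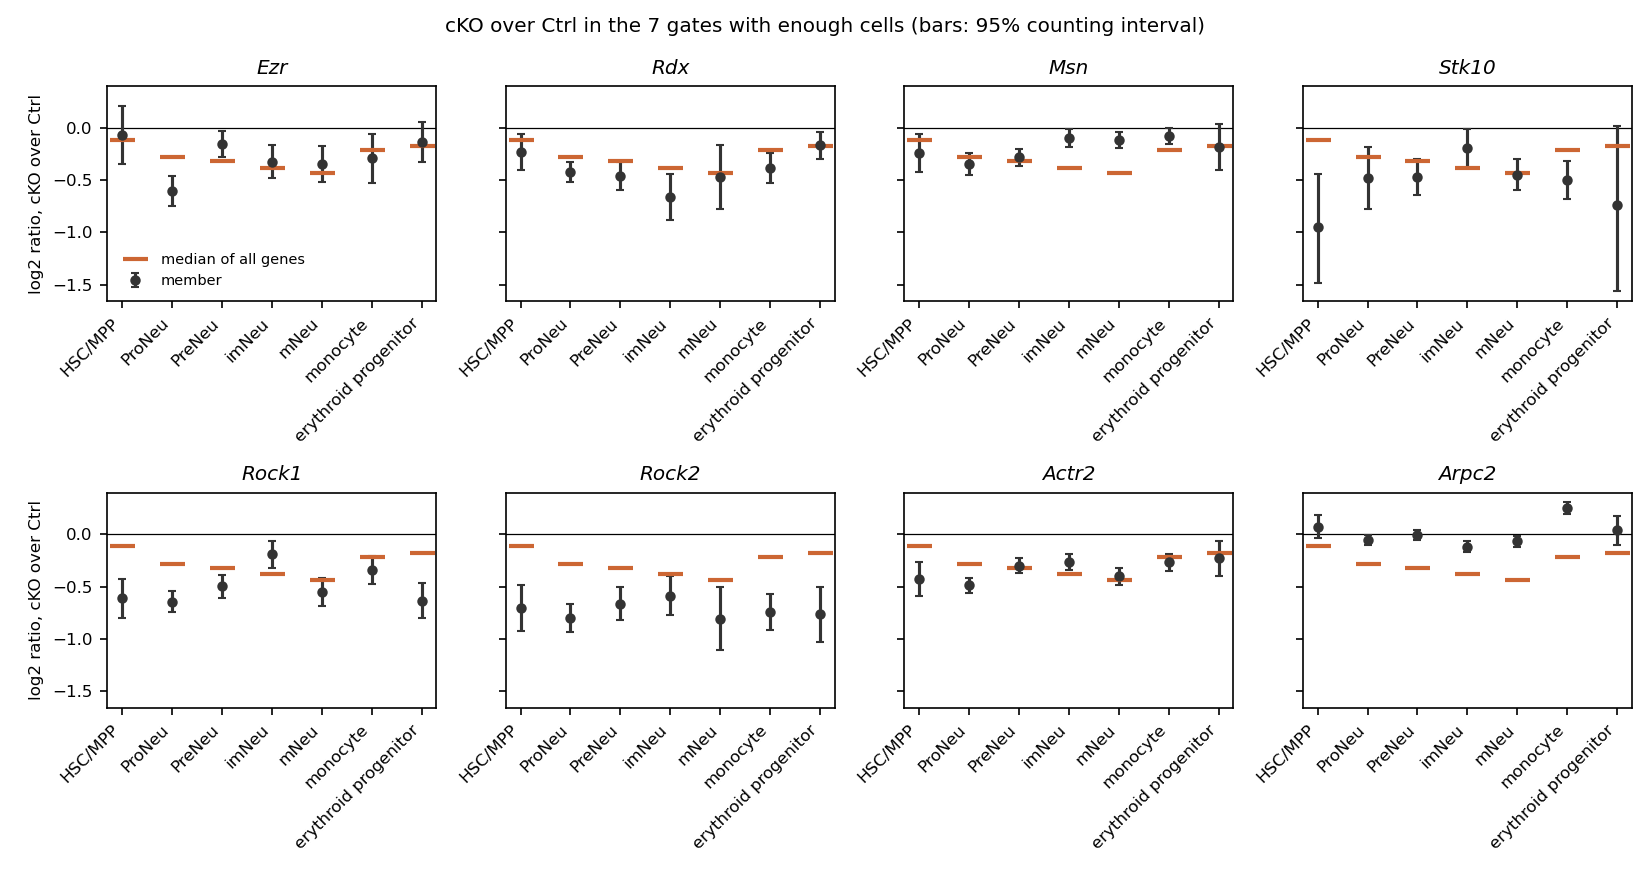
Log2 ratio of cKO over Ctrl (vertical axis, same scale in each panel) for each gene in the 7 gates with at least 50 cells in both libraries, with 95% counting intervals, and the median of all genes in each gate as an orange mark. Rock2 lies below the mark and Arpc2 above it in all 7 gates, whereas the other 6 genes lie on both sides. How common this is among all genes was not counted.

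Other properties differed between the libraries together with these ratios. Erythroblast markers, a list of 7 genes, summed to between 187 and 536 CPM in the 6 gates other than erythroid progenitors in Ctrl and to between 23.5 and 87.9 CPM in cKO. Markers of B cells (5 genes) summed to 10.7 CPM with none at 0 in Ctrl mNeu and to 0.228 CPM with 3 at 0 in cKO mNeu. The median mitochondrial share per cell was 2.42% in Ctrl and 1.98% in cKO for HSC/MPP, and 0.349% and 0.318% for mNeu. Median UMIs per cell were 9435 and 12203 in HSC/MPP, 16433 and 15235.5 in ProNeu and 5243 and 11955 in imNeu. The part of free RNA, depth and mitochondrial share in the ratios was not tested.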

How the data were processed

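Droplet-based 3′ scRNA-seq of c-Kit+ cells mixed with whole bone marrow was available for 1 Ctrl and 1 cKO library. The authors deposited raw UMI counts per gene and barcode, made with Cell Ranger 5.0.0 on GRCm38 per the labels and methods, without normalization, and the tables held barcodes outside the gene and mitochondrial limits of the methods. Cells with 200 to 9000 genes, at most 30% mitochondrial UMIs and at least 1000 UMIs were kept. For each cell, the UMI share of each marker list was divided by its mean over the libraries. A cell entered the gate with the highest value if at least 2 markers were detected, the value was at least 2 and it exceeded the next by 1.5 times. Secondary granule cells with at least 2 cycling markers and 0.1% cycling-marker UMIs were called PreNeu. No doublet caller was run, and cells with a close 2nd gate stayed ungated. UMIs were summed per gate and library and given as CPM with exact Poisson intervals, ratios with exact binomial intervals and shares with Clopper-Pearson intervals, all at 95%. A call was a change past 1.5-fold among genes with at least 20 UMIs. The intervals were tested only on counts simulated with the counting error that they assume. Those counts held no variation between cells or libraries. Named genes were the 8 genes, the 3 genes most correlated with each among those with at least 50 CPM in 1 gate of both libraries, the highest and lowest gene of each list by mNeu over ProNeu with at least 20 UMIs in each gate summed over the libraries, and Map4k4. 1 gene that this rule names and 1 of the gene lists are not reported here. The 8 genes, gene lists and markers were chosen with earlier results of these data known. Alternatives were floors of 500 and 2000 UMIs, 10% mitochondrial UMIs, a margin of 3, 27 Leiden clusters, 2 other scalings, per-cell means, other thinning and, chosen after seeing the data, removal of shared barcodes. The scripts ran in Python 3.11.15 with scikit-learn 1.9.0, leidenalg 0.10.2, scipy 1.17.1, numpy 2.4.6, matplotlib 3.10.9 and pandas 2.3.3.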

Additional observations from a re-analysis of the deposited data

How the results depend on the processing

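With 9 alternatives for gating, filtering and scaling, the number of the 8 genes higher in mNeu than in ProNeu stayed at 5 and the number lower at 2, except that 2 were higher when mitochondrial, ribosomal and marker genes were left out of the total. In the main setting 19.0% of all genes were higher and 57.6% lower, and their share under the alternatives is not given. Of the 56 combinations of gene and gate, 14 were lower in cKO past 1.5-fold, 12 to 15 under the gating and filtering alternatives, 9 with mitochondrial, ribosomal and marker genes left out of the total, 9 with the mean of per-cell proportions and 5 with median-of-ratios scaling. Of all genes, 14.0% to 37.2% were lower in a gate in the main setting and 7.41% to 18.7% with median-of-ratios scaling. Their share under the other alternatives is not given. None of the 56 combinations was higher under any alternative run. The log2 ratio of Stk10 in erythroid progenitors turned from -0.74 to 0.47 with Leiden clusters, and 36 of the 56 ratios moved beyond their interval with median-of-ratios scaling. The sign of 15 of the 56 differed with median-of-ratios scaling, of 5 with the mean of per-cell proportions, of 3 with mitochondrial, ribosomal and marker genes left out, of 2 with Leiden clusters and of 1 each with a wider margin between gates and without barcodes found in both libraries. The mean mNeu over ProNeu ratio ranged from 2.74 to 3.35 for Stk10, 1.67 to 2.28 for Msn, -2.37 to -1.76 for Rdx and -0.03 to 0.58 for Rock1, and the cause was not tested. Shares of cells with a UMI depended on the depth to which cells were thinned in 106 of 112 values at 2000 UMIs. The small cKO gates limit precision, with 122 erythroid progenitors and 147 HSC/MPP cells. No paired analysis was possible because each genotype has 1 library.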
